A study of Danio rerio with 56 samples.

Results

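Keratins are the intermediate filament proteins of epithelial cells, and 22 of the 32520 genes in the deposited table of raw counts were keratins by name. They were the genes whose symbol, case ignored, starts with krt and a number or with cyt1 (no symbol starting krtt was present), and their levels were followed over 5 ages and 4 treatments of whole zebrafish. The members are cyt1, cyt1l, krt4, krt5, krt8, krt15, krt17, krt18a.1, krt18a.2, krt18b, krt91, krt92, krt93, krt94, krt95, krt97, krt98, krt99, krt1-19d, krt1-19e, krt1-c5 and KRT222.

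A keratin filament is built from pairs of an acidic type I and a basic type II chain, and epithelia differ in the pairs they make. Zebrafish krt4, krt5 and krt8 encode type II chains; the krt18 genes, krt1-19d, krt1-19e, krt15, krt17, cyt1 and cyt1l encode type I chains. The skin of the embryo and larva is a thin epidermis of basal cells under an outer layer that stems from the enveloping layer, and during the passage from larva to juvenile it becomes a stratified epidermis over a scaled dermis.

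The fish were of the AB strain and were sampled at 2, 8, 16, 32 and 64 d, and each library was made from polyadenylated RNA of 25 whole fish of unstated sex. They were kept in DMSO alone, in exemestane (EM, an inhibitor of the aromatase that makes oestrogen) at 10 µg/L, in 17β-estradiol (E2, the main oestrogen) at 100 ng/L, or in EM and E2 together (EM+E2). All groups, the controls included, were in the solvent DMSO, whose dose the labels give as 100 with the unit µg/L in one place and µl/L in another. Of the 20 groups 15 held 3 libraries; DMSO and EM+E2 held 2 at 2 d, as did all groups but DMSO at 64 d. The labels do not say whether pools of one group came from separate tanks, so p-values measure the spread between these libraries only.

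Counted reads ran from 4039030 to 10144213 in the 55 libraries used (median 9107346), and levels are given as reads per 1000000 counted reads of the library (CPM). A CPM level depends on transcript length, so levels are compared between libraries and never between genes. Pools of whole fish contain all organs: the skin genes TP63, cdh1, cldne, evpla, PPL and col17a1a had reads in 55 of the 55 libraries and epcam in 52, and the intestinal genes FABP2 and VIL1 had reads in 55. How much of a keratin's reads came from skin was not measured, and in such bulk RNA fewer cells of a type and less RNA per cell cannot be told apart. In the raw counts EM+E2 2 d replicate 2 was identical in all 32520 genes to replicate 3 of EM+E2 at 16 d and was left out. E2 2 d replicate 1 and E2 16 d replicate 1 differed from each other by a chi-square of 3.65 per degree of freedom, below the 7.99 to 228 of the 50 pairs of libraries of one group, although their labelled ages differ. The correlation of log2 CPM with the other libraries of its group was 0.826 and 0.747 for the first and 0.743 and 0.709 for the second, and which of them departs from its label cannot be told from the tables. Levels at 2 and 16 d given as lowest, median and highest over all treatments leave both out, and their own values follow where they lie outside that range.

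The authors' tables, the raw counts and a normalized table from which whole reads were recovered, gave different reads to several keratins. krt5, a type II keratin of the outer embryonic layer, had 3462 raw reads over all libraries but 542793 recovered reads, a CPM ratio of 217. The ratio was 10.1 for krt18a.1, 9.78 for krt4, 6.81 for krt15 and 3.93 for krt95, while cyt1 had a ratio of 0.275, krt97 of 0.415, krt91 of 0.576 and krt17 of 0.581. Over 19518 genes with at least 550 raw reads the median ratio was 1.06, and the 5th and 95th percentiles were 0.799 and 4.61. The ratios were between 0.823 and 1.28 for cyt1l, krt1-19e, krt94, KRT222, krt1-19d, krt92, krt93 and krt1-c5, so these keratins had nearly the same level in both tables. Close copies may share reads, and the counting options are not given in the sources used here. The raw counts were the main values, and values from the recovered reads stand beside a number of them.

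**Figure D1:**
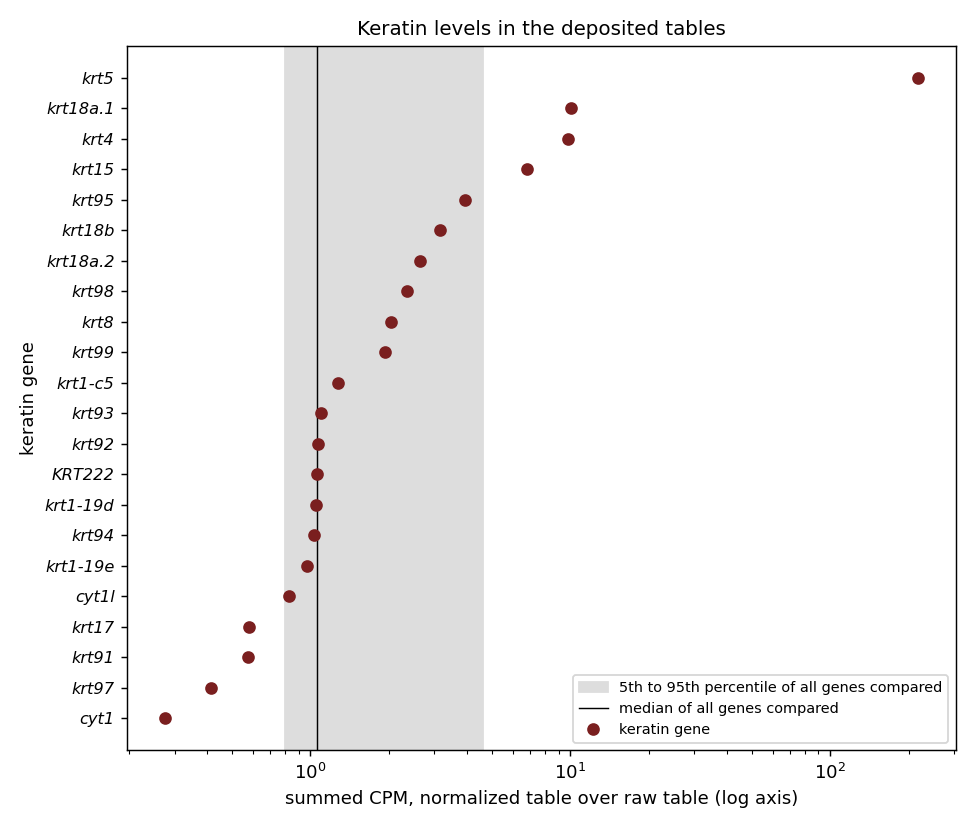
CPM of each of the 22 keratins in the reads recovered from the normalized table divided by its CPM in the raw counts, on a log axis, with a band for the 5th to 95th percentile of 19518 genes (0.799 to 4.61). krt5 (217), krt18a.1 (10.1), krt4 (9.78) and krt15 (6.81) lie above the band, and krt17, krt91, krt97 and cyt1 lie below it.

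In control fish 11 of the 22 keratins differed between the larval ages of 8 and 16 d and the later ages of 32 and 64 d. Over the DMSO libraries, 5 of the 22 keratins were lower and 6 were higher late (the mean of 32 and 64 d) than early (the mean of 8 and 16 d), at an adjusted p under 0.05 in edgeR's quasi-likelihood test. Of all 22148 genes tested, 13.7 percent were lower and 15.4 percent were higher in this comparison. The lower keratins were cyt1, cyt1l, krt1-19e, krt17 and krt1-c5, called larval keratins here, and the higher ones were krt91, krt94, krt15, krt93, krt98 and krt18a.2, called juvenile keratins. The median log2 fold change was -0.29 over the 22 keratins and 0.06 over all genes. In the recovered reads 8 keratins were lower (background 14.7 percent) and 6 higher (background 20.9 percent); krt4, krt18b and KRT222 were the added lower ones, with log2 fold changes of -0.67, -0.77 and -0.62. Leaving out single libraries gave 10 to 12 calls on the raw counts.

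**Figure D2:**
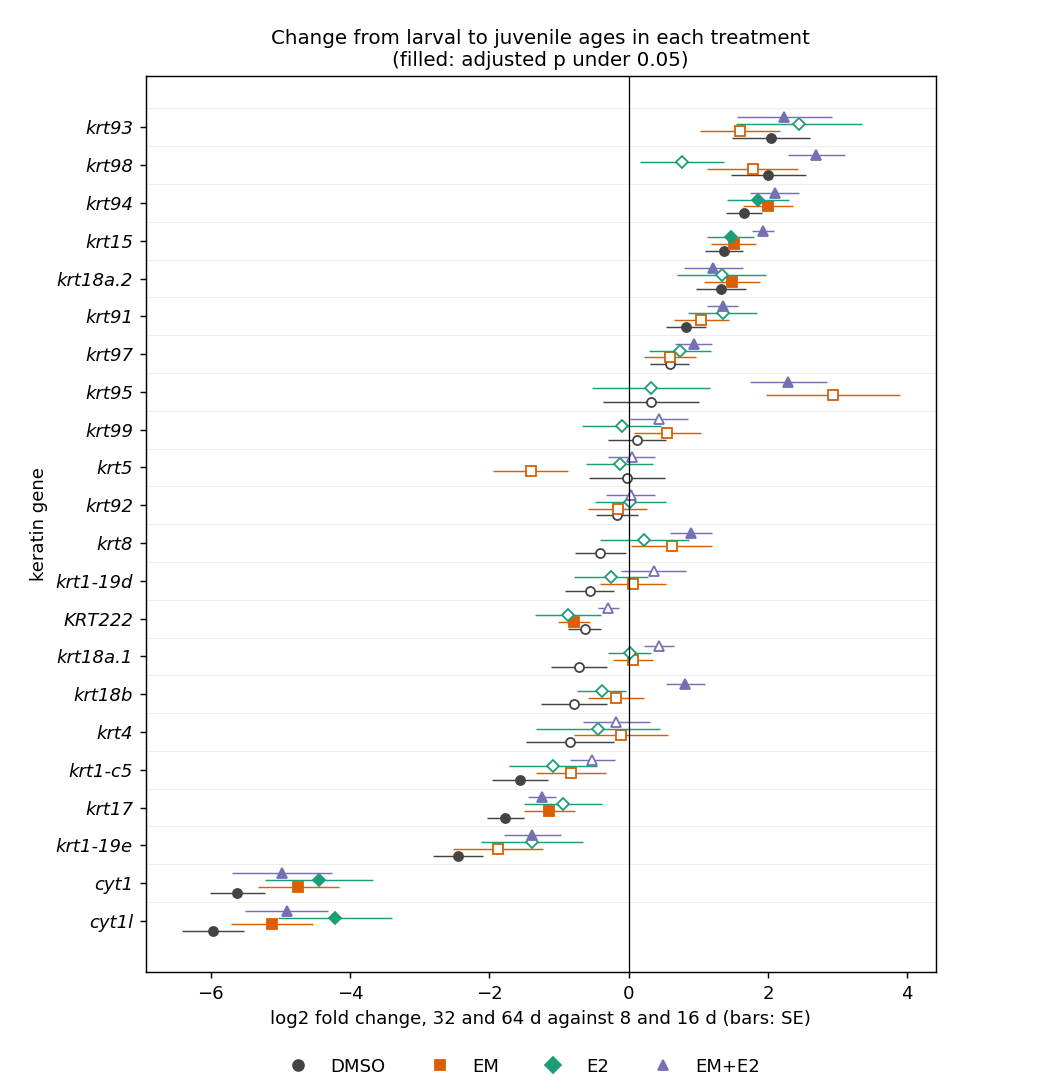
Log2 fold change, with its SE as the bar, of each keratin late (32 and 64 d) against early (8 and 16 d) in each of the 4 treatments; filled points passed the test at an adjusted p under 0.05. cyt1 and cyt1l lie between -4.21 and -5.97 in every treatment, and the krt94 points lie above 0.

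cyt1, a type I keratin named after the enveloping layer, fell at 3 of the 4 steps between ages. In DMSO it stood at 1494 and 789 CPM at 2 d, at 462, 214 and 196 CPM at 8 d, at 407, 412 and 245 CPM at 16 d, at 11.6, 6.28 and 15.4 CPM at 32 d and at 3.19, 1.49 and 4.20 CPM at 64 d. The values at 2 d were the highest and those at 64 d the lowest, and no library of 32 or 64 d reached any library of 8 or 16 d. Late against early, cyt1 had a log2 fold change of -5.62 (SE 0.39, adjusted p = 9.48e-07). It was lower at 8 than at 2 d (log2 fold change -2.24, SE 0.50, adjusted p = 0.00630). It was lower at 32 than at 16 d (log2 fold change -4.79, SE 0.53, adjusted p = 0.000518) and lower again at 64 than at 32 d (log2 fold change -2.14, SE 0.49, adjusted p = 0.00851). Over all treatments its lowest, median and highest levels were 452, 1081 and 2398 CPM at 2 d, 133, 442 and 908 CPM at 8 d, 93.8, 280.3 and 575 CPM at 16 d, 5.20, 23.3 and 82.8 CPM at 32 d and 1.49, 3.19 and 5.77 CPM at 64 d, with 169 CPM in E2 2 d replicate 1. The call from 2 to 8 d ended without DMSO 2 d replicate 1, and that from 32 to 64 d was not made on the recovered reads, where the log2 fold change was -2.04 with an adjusted p of 0.0774. Over all 4 treatments the 21 libraries of 32 and 64 d held 1.49 to 82.8 CPM and the 24 libraries of 8 and 16 d held 93.8 to 908 CPM. cyt1 was the only keratin whose late and early libraries did not overlap across all treatments. The share of all genes apart in this way, over all treatments or within a single one, is not given here.

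cyt1l, the neighbouring gene named as like cyt1, fell in the same order of ages. In the controls it stood at 903 and 799 CPM at 2 d, at 164, 109.6 and 71.8 CPM at 8 d, at 55.6, 24.4 and 49.9 CPM at 16 d, at 1.34, 1.64 and 1.22 CPM at 32 d and at 0.212, 0.956 and 0.567 CPM at 64 d. The 2 d libraries were far above the rest, and every 32 and 64 d library was below every 16 d library. The change was -5.97 on the log2 scale late against early (SE 0.45, adjusted p = 1.84e-06), -3.09 from 2 to 8 d (adjusted p = 0.00163) and -4.58 from 16 to 32 d (adjusted p = 0.00136). Over the libraries of all treatments its lowest, median and highest levels were 223, 799 and 1246 CPM at 2 d, 43.8, 71.1 and 164 CPM at 8 d, 6.68, 32.3 and 55.6 CPM at 16 d, 0.859, 1.61 and 11.7 CPM at 32 d and 0, 0.567 and 1.21 CPM at 64 d, with 10.19 CPM in E2 2 d replicate 1. From 32 to 64 d it was -1.54, with an adjusted p of 0.105; it passed only without DMSO 64 d replicate 2, at an adjusted p of 0.0473. One library, EM+E2 64 d replicate 2, had no cyt1l read, which allows up to 0.340 CPM by counting error alone.

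krt1-19e, a type I keratin of basal epidermal cells that is also called krtt1c19e, did not fall steadily. In DMSO its level stood at 517 and 979 CPM at 2 d, at 166, 76.1 and 101 CPM at 8 d, at 725, 633 and 295 CPM at 16 d, at 117, 38.5 and 121 CPM at 32 d and at 25.5, 6.38 and 24.5 CPM at 64 d. It was high at 2 d, low at 8 d, high again at 16 d and lowest at 64 d, and the 8 and 16 d libraries did not overlap. The step from 2 to 8 d was a log2 fold change of -2.84 (SE 0.55, adjusted p = 0.00257). The step from 8 to 16 d was the only keratin call between those ages, a log2 fold change of 2.49 (SE 0.51, adjusted p = 0.0138). It then dropped by 2.45 on the log2 scale from 16 to 32 d (adjusted p = 0.0249) and by 2.49 from 32 to 64 d (adjusted p = 0.00531). The call from 8 to 16 d ended without DMSO 8 d replicate 2 or 3 or DMSO 16 d replicate 1 or 2. The call from 16 to 32 d ended without DMSO 16 d replicate 1 or 2 or any single DMSO 32 d library. The lowest, median and highest krt1-19e levels over all treatments were 209, 979 and 1669 CPM at 2 d, 37.2, 121 and 253 CPM at 8 d, 107, 633 and 1317 CPM at 16 d, 38.5, 264 and 535 CPM at 32 d and 6.38, 24.5 and 58.8 CPM at 64 d, with 79.4 CPM in E2 2 d replicate 1 and 67.7 CPM in E2 16 d replicate 1. Late against early, the change was -2.45 (SE 0.36, adjusted p = 0.000281).

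krt17, a type I keratin, was low at 2 d and highest at 8 and 16 d. In the DMSO fish it stood at 21.5 and 30.4 CPM at 2 d, at 373, 547 and 377 CPM at 8 d, at 542, 544 and 579 CPM at 16 d, at 150.5, 52.3 and 288 CPM at 32 d and at 121, 99.1 and 76.8 CPM at 64 d. All 8 and 16 d libraries were above all others, and the 2 d libraries were the lowest. The rise from 2 to 8 d was a log2 fold change of 3.91 (SE 0.49, adjusted p = 0.000121), and the drop late against early was a log2 fold change of -1.77 (SE 0.26, adjusted p = 0.000295). With all treatments pooled, the lowest, median and highest krt17 levels were 19.1, 30.4 and 138 CPM at 2 d, 309, 531 and 801 CPM at 8 d, 202, 575 and 773 CPM at 16 d, 52.3, 322 and 594 CPM at 32 d and 76.8, 121 and 202 CPM at 64 d, with 123 CPM in E2 16 d replicate 1. The drop from 16 to 32 d alone was -1.65 (adjusted p = 0.0366) and did not pass in 9 of 14 fits that left out 1 library.

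krt1-c5, named as keratin type 1 gene c5, was counted at low levels. In DMSO it stood at 4.53 and 7.61 CPM at 2 d, at 5.46, 2.96 and 3.59 CPM at 8 d, at 3.59, 2.80 and 8.79 CPM at 16 d, at 2.98, 1.23 and 1.55 CPM at 32 d and at 0.531, 1.06 and 0.794 CPM at 64 d. The 64 d libraries were the lowest, and the 32 d libraries overlapped those of 8 and 16 d. In all treatments the lowest, median and highest krt1-c5 levels were 3.04, 7.61 and 12.2 CPM at 2 d, 2.88, 5.77 and 16.0 CPM at 8 d, 1.73, 6.35 and 13.5 CPM at 16 d, 0.548, 3.73 and 8.97 CPM at 32 d and 0.531, 2.19 and 4.73 CPM at 64 d. Its change late against early was -1.56 (SE 0.40, adjusted p = 0.0109), and no single step between ages passed.

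**Figure D3:**
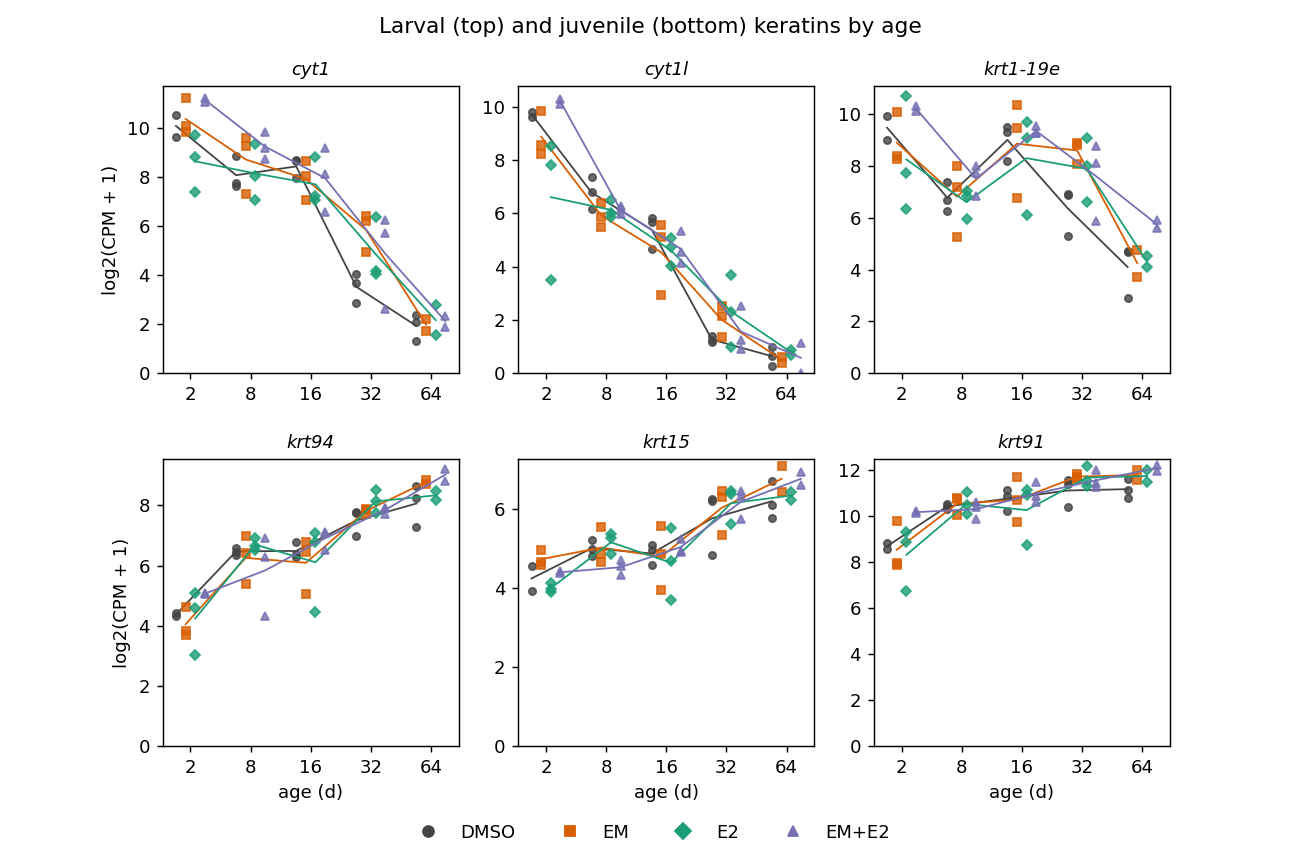
log2(CPM + 1) of 3 larval keratins (cyt1, cyt1l, krt1-19e) in the top row and 3 juvenile keratins (krt94, krt15, krt91) in the bottom row at 2, 8, 16, 32 and 64 d. Points are the 55 libraries, coloured by treatment, and lines join the group means; the cyt1 and cyt1l points drop between 16 and 32 d in every treatment, and the krt94 points rise.

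krt94 was the juvenile keratin whose early and late DMSO libraries did not overlap. In the controls it stood at 19.2 and 20.5 CPM at 2 d, at 87.7, 80.6 and 96.0 CPM at 8 d, at 82.6, 77.8 and 109 CPM at 16 d, at 218, 124 and 215 CPM at 32 d and at 156, 402 and 302 CPM at 64 d. Every 32 and 64 d library was above every 8 and 16 d library, and the 2 d libraries were below both. It rose from 2 to 8 d (log2 fold change 1.97, SE 0.42, adjusted p = 0.00514) and late against early (log2 fold change 1.65, SE 0.25, adjusted p = 0.000369). Over all treatments the lowest, median and highest krt94 levels were 7.17, 20.5 and 33.3 CPM at 2 d, 19.1, 89.4 and 125 CPM at 8 d, 32.2, 109 and 139 CPM at 16 d, 124, 223 and 365 CPM at 32 d and 156, 402 and 597 CPM at 64 d, with 21.1 CPM in E2 16 d replicate 1. From 16 to 32 d the log2 fold change was 1.34 with an adjusted p of 0.0810 on the raw counts and 1.28 with an adjusted p of 0.0450 on the recovered reads.

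krt15, a type I keratin whose mammalian namesake marks basal epidermal cells, rose later. In DMSO its level stood at 22.8 and 14.3 CPM at 2 d, at 36.3, 27.2 and 31.1 CPM at 8 d, at 30.1, 33.0 and 23.2 CPM at 16 d, at 72.9, 27.9 and 75.2 CPM at 32 d and at 54.0, 104 and 68.5 CPM at 64 d. At 32 d replicate 2 stayed among the 8 and 16 d values, and the other late libraries were above them. The rise was a log2 fold change of 1.37 (SE 0.27, adjusted p = 0.00222) late against early. The lowest, median and highest levels in the libraries of all treatments were 13.9, 20.5 and 30.3 CPM at 2 d, 19.2, 28.2 and 46.2 CPM at 8 d, 14.6, 30.0 and 46.4 CPM at 16 d, 27.9, 76.5 and 87.7 CPM at 32 d and 54.0, 86.4 and 136 CPM at 64 d, with 12.1 CPM in E2 16 d replicate 1. From 16 to 32 d it was 1.21 (adjusted p = 0.164) on the raw counts and 1.78 (adjusted p = 0.0257) on the recovered reads, which held 6.81 times its raw level.

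krt91 was well counted at every age. In the DMSO fish it stood at 372 and 450.0 CPM at 2 d, at 1377, 1439.7 and 1259 CPM at 8 d, at 1860.3, 2243 and 1197 CPM at 16 d, at 2654, 1312 and 2997 CPM at 32 d and at 1767, 3043 and 2193 CPM at 64 d. The 2 d libraries were lowest, and the late libraries overlapped the early ones. Its rises from 2 to 8 d (log2 fold change 1.55, SE 0.47, adjusted p = 0.0312) and late against early (log2 fold change 0.82, SE 0.28, adjusted p = 0.0438) were near the threshold. Taken over all treatments, the lowest, median and highest krt91 levels were 106, 450.0 and 1176 CPM at 2 d, 928, 1394 and 2072 CPM at 8 d, 848, 1862 and 3266 CPM at 16 d, 1312, 2972 and 4570.2 CPM at 32 d and 1767, 3043 and 4635 CPM at 64 d, with 422 CPM in E2 16 d replicate 1. The first ended without any single 2 or 8 d library and on the recovered reads (adjusted p = 0.0708). The second ended without any one of DMSO 8 d replicates 1 to 3, 16 d replicates 1 and 3, 32 d replicates 1 and 3 and 64 d replicate 2.

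krt93 was nearly absent at 2 d and spread widely at 64 d. In DMSO it stood at 0.116 and 0 CPM at 2 d, at 6.73, 11.3 and 9.45 CPM at 8 d, at 24.1, 28.5 and 19.7 CPM at 16 d, at 37.4, 35.5 and 50.9 CPM at 32 d and at 3.82, 45.4 and 146 CPM at 64 d. The lowest and the highest of all its DMSO values after 2 d were both at 64 d. At 8 d the DMSO libraries held 240 reads against 1 at 2 d, a ratio of 165 with a 95 percent counting interval of 29.3 to 6544. For krt93 the lowest, median and highest levels of all treatments were 0, 0 and 0.116 CPM at 2 d, 0.250, 8.65 and 21.8 CPM at 8 d, 5.45, 20.9 and 28.5 CPM at 16 d, 15.1, 33.9 and 76.3 CPM at 32 d and 3.82, 45.4 and 146 CPM at 64 d, with 3.54 CPM in E2 2 d replicate 1 and 0.583 CPM in E2 16 d replicate 1. The test from 2 to 8 d gave an adjusted p of 0.00598 and did not pass without DMSO 2 d replicate 2. Late against early krt93 changed by 2.04 (SE 0.56, adjusted p = 0.0149).

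krt98 and krt18a.2 are juvenile keratins that had few reads. In DMSO krt98 stood at 0 and 0.429 CPM at 2 d, at 0.348, 0.986 and 1.20 CPM at 8 d, at 3.71, 4.43 and 3.47 CPM at 16 d, at 10.7, 2.32 and 5.98 CPM at 32 d and at 2.65, 11.2 and 4.42 CPM at 64 d. krt18a.2, one of the genes named after KRT18, the type I partner of KRT8, stood at 0.464 and 0.214 CPM at 2 d, at 6.27, 3.61 and 5.15 CPM at 8 d, at 7.07, 3.4996 and 5.10 CPM at 16 d, at 12.4, 2.73 and 18.8 CPM at 32 d and at 9.13, 11.4 and 15.3 CPM at 64 d in DMSO. krt18a.2 was lowest at 2 d, while the 2 d values of krt98 overlapped those of 8 d. DMSO 32 d replicate 2 lay among the early values for krt98, as did DMSO 64 d replicates 1 and 3. For krt18a.2 DMSO 32 d replicate 2 lay below the 8 and 16 d values. As lowest, median and highest over all treatments, krt98 had 0, 0.102 and 0.429 CPM at 2 d, 0.125, 1.09 and 4.02 CPM at 8 d, 0.248, 3.91 and 13.3 CPM at 16 d, 2.32, 5.62 and 11.6 CPM at 32 d and 2.65, 6.36 and 11.2 CPM at 64 d. Late against early krt98 rose by 2.01 (SE 0.54, adjusted p = 0.0135) and krt18a.2 by 1.33 (SE 0.36, adjusted p = 0.0143) on the log2 scale. Lowest, median and highest krt18a.2 levels were 0, 0.214 and 1.76 CPM at 2 d, 1.5004, 5.07 and 9.39 CPM at 8 d, 2.23, 5.88 and 9.04 CPM at 16 d, 2.73, 10.9 and 19.0 CPM at 32 d and 8.68, 11.7 and 26.2 CPM at 64 d, with 0.292 CPM in E2 16 d replicate 1. krt18a.2 had also risen from 2 to 8 d, by 3.63 (adjusted p = 0.00331).

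The other 11 keratins did not pass late against early in DMSO. krt8, the type II chain of simple epithelia that pairs with keratin 18, stood at 83.7 and 268 CPM at 2 d, at 478, 581 and 627 CPM at 8 d, at 186, 173 and 585 CPM at 16 d, at 324, 64.7 and 597 CPM at 32 d and at 230.3, 221 and 281 CPM at 64 d in DMSO. Late against early its log2 fold change was -0.41 (SE 0.37, adjusted p = 0.448). Its 32 d libraries ranged from 64.7 to 597 CPM and spanned those of 16 and 64 d. Across all treatments the lowest, median and highest krt8 levels were 54.8, 268 and 763 CPM at 2 d, 112, 504 and 687 CPM at 8 d, 134, 454 and 771 CPM at 16 d, 64.7, 506 and 668 CPM at 32 d and 221, 567 and 851 CPM at 64 d, with 42.7 CPM in E2 2 d replicate 1 and 44.2 CPM in E2 16 d replicate 1. krt92 stood at 29.9 and 29.7 CPM at 2 d, at 436, 331 and 364 CPM at 8 d, at 369.8, 231 and 389 CPM at 16 d, at 225, 235 and 184 CPM at 32 d and at 199.6, 381 and 259 CPM at 64 d in DMSO. It rose from 2 to 8 d (log2 fold change 3.47, SE 0.55, adjusted p = 0.000741), with all later libraries above those of 2 d. For krt92 the lowest, median and highest levels over all treatments were 9.57, 29.9 and 56.6 CPM at 2 d, 72.6, 368 and 478 CPM at 8 d, 94.8, 315 and 426 CPM at 16 d, 152, 228 and 344 CPM at 32 d and 189, 274 and 381 CPM at 64 d, with 32.4 CPM in E2 16 d replicate 1. krt97 stood at 139.8 and 165 CPM at 2 d, at 403, 401 and 358 CPM at 8 d, at 429, 435 and 621 CPM at 16 d, at 559, 351 and 558 CPM at 32 d and at 332, 926 and 489 CPM at 64 d in DMSO. Neither its step from 2 to 8 d (log2 fold change 1.17, adjusted p = 0.0885) nor late against early (adjusted p = 0.138) passed. For krt97 the lowest, median and highest levels were 73.5, 139.8 and 311 CPM at 2 d, 175, 412 and 723 CPM at 8 d, 196, 497 and 674 CPM at 16 d, 351, 548 and 704 CPM at 32 d and 332, 788 and 1136 CPM at 64 d, with 70.4 CPM in E2 16 d replicate 1. krt1-19d rose from 2 to 8 d, from 5.46 and 11.9 CPM to 137, 138 and 113 CPM (log2 fold change 3.78, SE 0.66, adjusted p = 0.00143). krt95 had no read at 2 d in DMSO and 35 reads at 8 d, which is at least 8.02-fold higher against 3 counts over the 2 d group (adjusted p = 0.0334). The call ended without any one of DMSO 2 d replicates 1 and 2 and 8 d replicates 2 and 3. krt99, krt18a.1, krt18b and KRT222 had log2 fold changes late against early of 0.12, -0.72, -0.79 and -0.63, with adjusted p-values from 0.0565 to 0.861.

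krt4, a type II keratin of the superficial epidermis, depended on the library and on the table. In the raw counts of DMSO it stood at 121 and 1543 CPM at 2 d, at 154, 90.5 and 71.6 CPM at 8 d, at 123, 76.2 and 351 CPM at 16 d, at 76.9, 3.55 and 193 CPM at 32 d and at 62.9, 44.5 and 59.5 CPM at 64 d. The 2 d libraries lay far apart, and replicate 1 was within the range of the later ages. Over all treatments krt4 had lowest, median and highest raw levels of 108, 757 and 1829 CPM at 2 d, 24.1, 126 and 307 CPM at 8 d, 26.7, 238 and 529 CPM at 16 d, 3.55, 151 and 268 CPM at 32 d and 44.5, 137 and 262 CPM at 64 d, with 6.79 CPM in E2 2 d replicate 1 and 6.27 CPM in E2 16 d replicate 1. It was called lower at 8 than at 2 d (log2 fold change -2.98, SE 1.00, adjusted p = 0.0477), but without DMSO 2 d replicate 2 the log2 fold change was -0.58. The call was kept in 4 of 14 fits without 1 library. It also ended in edgeR with a block for the replicate number (adjusted p = 0.0557) and in 1 fit over all groups (adjusted p = 0.0704). In the recovered reads krt4 stood at 4949 and 7584 CPM at 2 d and at 2056, 2028 and 1945 CPM at 8 d, with no overlap (log2 fold change -1.81, adjusted p = 0.00204). The raw 2 d libraries of all treatments fell into sets that cross the treatments. DMSO replicate 1, EM replicates 1 and 2 and E2 replicate 2 held 108 to 214 CPM of krt4 and 54.8 to 85.2 CPM of krt8. DMSO replicate 2, EM replicate 3, E2 replicate 3 and EM+E2 replicates 1 and 3 held 757 to 1829 CPM of krt4 and 268 to 763 CPM of krt8. The sets were not particular to keratins. Over well counted genes DMSO replicate 1 correlated at 0.967 and 0.968 with EM replicates 1 and 2, but at 0.856 with DMSO replicate 2. The correlation of DMSO replicate 2 with EM replicate 3 was 0.975. Intestinal genes summed to 46.7 to 63.7 CPM in the first set and 957 to 1245 CPM in the second. For krt5 the raw counts gave 5.57 and 11.8 CPM at 2 d and 13.1, 2.02 and 3.97 CPM at 64 d in DMSO and the recovered reads gave 373 and 1172 CPM and 1474, 1397 and 1302 CPM. Neither table gave a call late against early (adjusted p = 0.985 and 0.0868).

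Counted by step in DMSO, most keratin calls fell between 2 and 8 d. In that step 8 of 22 keratins were higher (background 10.4 percent) and 4 were lower (background 11.0 percent), and the median log2 fold change was 1.02 against 0.05 over all genes. krt17, krt92, krt1-19d, krt94, krt18a.2, krt91, krt93 and krt95 were higher, and cyt1, cyt1l, krt1-19e and krt4 were lower. The DMSO 2 d libraries belonged to different sets of those described with krt4, and the part of this in the calls was not tested. From 8 to 13 keratins passed when single libraries were left out, the fewest without DMSO 2 d replicate 2. From 8 to 16 d, 1 keratin was higher and 0 lower (background 3.69 and 0.926 percent; 3 keratins had an unadjusted p under 0.05, and DESeq2 called 2). From 16 to 32 d, 4 keratins were lower (background 0.316 percent) and 0 higher (background 1.68 percent); 7 had an unadjusted p under 0.05 and DESeq2 called 6. The 4 were cyt1, cyt1l, krt1-19e and krt17, of 70 genes lower in all. Of these cyt1 and cyt1l passed in each of the 14 fits without 1 library, with 2 calls in all without DMSO 16 d replicate 1 or 2 or DMSO 32 d replicate 1 or 2. The recovered reads gave the same number lower (background 0.352 percent) and 2 higher, krt94 and krt15 (background 2.22 percent). From 32 to 64 d, 2 were lower, cyt1 and krt1-19e (background 10.8 percent), and 0 higher (background 10.4 percent; 7 with an unadjusted p under 0.05, 3 called by DESeq2), where the median over all genes was -0.31. On the recovered reads krt1-19e passed as lower, cyt1 did not pass, and krt95 passed as higher (log2 fold change 3.20, adjusted p = 0.0221). Calls numbered 4 without DMSO 64 d replicate 2, with cyt1l and KRT222 added. Mitochondrial genes took 20.4 percent of the reads in DMSO 32 d replicate 2 and 15.6 percent in DMSO 64 d replicate 2, against 6.89 to 10.9 percent in the other 32 d libraries and 5.81 to 9.98 percent in the other 64 d libraries, and their part in these calls was not tested.

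The larval and juvenile keratins were defined in DMSO, and the EM, E2 and EM+E2 libraries had no part in that choice. In each of these treatments all 5 larval keratins had a negative and all 6 juvenile keratins a positive log2 fold change late against early, and 0 passed in the opposite direction. How many of all genes called in DMSO kept their direction is not given here. The pattern is therefore not shown to be particular to keratins. In EM 3 larval and 3 juvenile keratins passed, beside KRT222, which was lower (background 9.05 percent lower and 9.23 percent higher). In E2 2 larval and 2 juvenile keratins passed (background 3.01 percent lower and 5.50 percent higher). In EM+E2 4 larval and all 6 juvenile keratins passed, with krt8, krt18b, krt97 and krt95 higher as well (background 17.9 percent lower and 19.4 percent higher). The median log2 fold changes of the larval and juvenile keratins were -1.87 and 1.55 in EM, -1.38 and 1.41 in E2 and -1.38 and 2.01 in EM+E2, against medians over all genes of -0.03, -0.03 and -0.00. On the recovered reads 4 keratins were lower and 6 higher in EM (background 11.8 percent in each direction), 2 lower and 2 higher in E2 (4.30 and 7.17 percent), and 4 lower and 12 higher in EM+E2 (22.5 and 24.5 percent).

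cyt1, cyt1l, krt94 and krt15 passed in every treatment. The log2 fold change of cyt1 was -4.74 in EM (adjusted p = 0.000292), -4.45 in E2 (adjusted p = 0.00433) and -4.98 in EM+E2 (adjusted p = 0.000364). That of cyt1l was -5.12, -4.21 and -4.91 in the same order, that of krt94 2.00, 1.86 and 2.096, and that of krt15 1.51, 1.47 and 1.93. Within each treatment every late library was below every early one for cyt1 and cyt1l and above every early one for krt94. For krt94 the early libraries held 19.1 to 139 CPM and the late ones 124 to 597 CPM over all treatments. krt17 had log2 fold changes of -1.14 in EM, where its call ended in 11 of 14 fits without 1 library, -0.95 in E2 (adjusted p = 0.307) and -1.24 in EM+E2 (adjusted p = 0.000723). In E2 no keratin passed without E2 64 d replicate 2, and 5 passed without E2 2 d replicate 1 and E2 16 d replicate 1.

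The raw larval to juvenile keratin ratio was lower in every 32 and 64 d library than in any 8 or 16 d library. In the recovered reads E2 32 d replicate 3 (-1.43 on the log2 scale) lay above E2 8 d replicate 3 (-1.59). In the raw counts krt91 made up 80.3 to 95.6 percent of the juvenile sum. The ratio is followed between libraries only, since levels of different genes are not compared. On the log2 scale it had a lowest, median and highest value of 1.97, 2.42 and 2.84 at 2 d, -0.961, -0.259 and 0.253 at 8 d, -1.07, -0.440 and 0.0979 at 16 d, -3.91, -2.55 and -1.68 at 32 d and -5.05, -4.68 and -3.73 at 64 d. E2 2 d replicate 1, at -0.386, lay below the other 2 d libraries, and with it the median at 2 d was 2.35. In the raw counts all 22 keratins together took a median of 0.512 percent of the reads at 2 d, 0.434 percent at 8 d and 0.537 percent at 16 d. The medians were 0.576 percent at 32 d and 0.582 percent at 64 d. With E2 2 d replicate 1 and E2 16 d replicate 1 they were 0.446 percent at 2 d and 0.525 percent at 16 d. Recovered reads gave other shares in DMSO: 0.817 and 1.19 percent at 2 d, 0.653 to 0.679 percent at 8 d and 0.863 to 0.923 percent at 16 d. There they were 0.448 to 0.964 percent at 32 d and 0.528 to 0.844 percent at 64 d. These values are a description, since the DMSO libraries chose the sets.

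**Figure D4:**
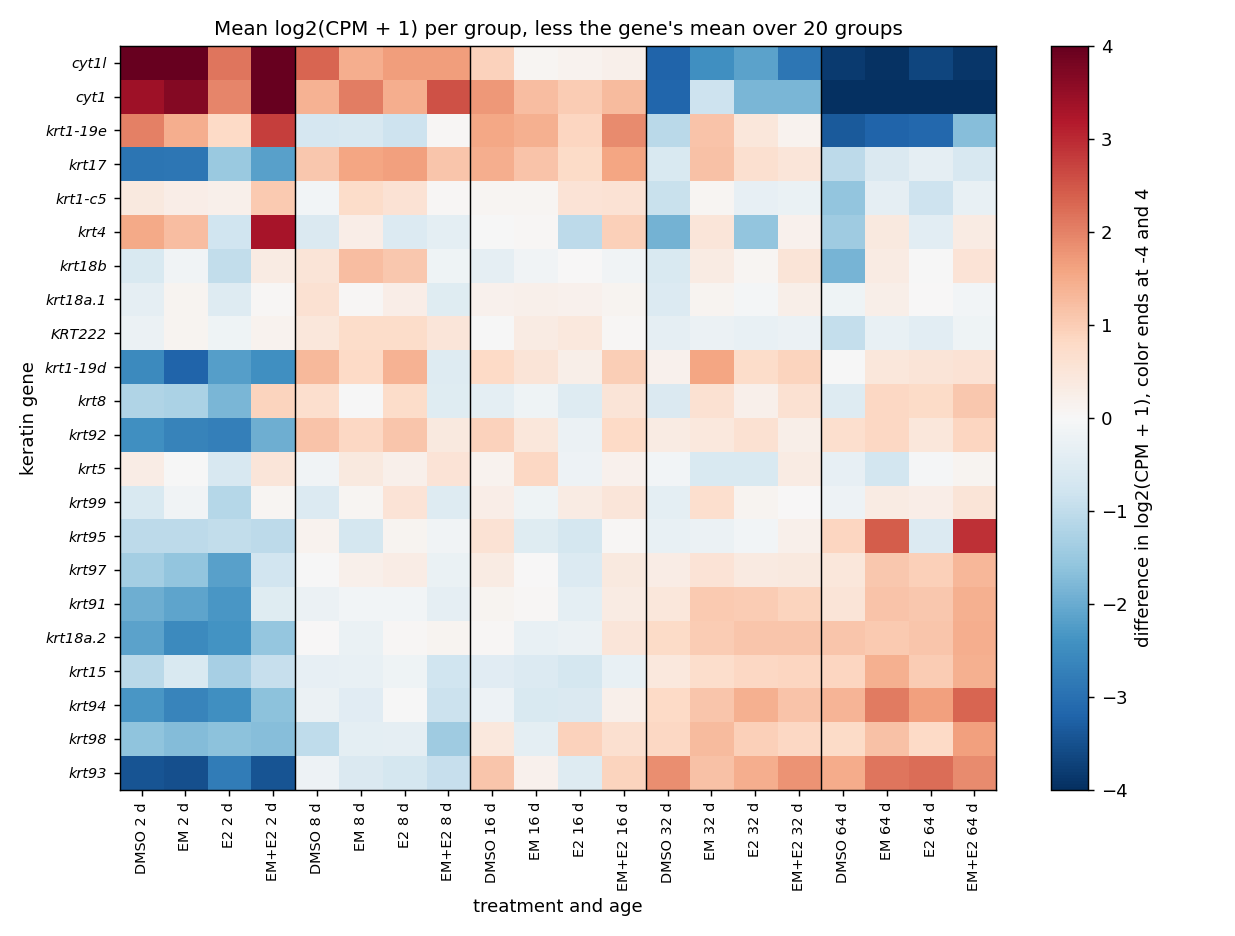
Mean level of each keratin in the 20 groups, as log2(CPM + 1) less the gene's mean over the groups, with colour ends at -4 and 4. Columns are ordered by age and treatment; the larval keratins cyt1, cyt1l and krt1-19e are high at 2 d and low at 64 d in every treatment, and the juvenile keratins are low at 2 d.

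In the genome 4 of the 5 larval and 4 of the 6 juvenile keratins lay in a run of keratin genes each. In the gene order of the RefSeq annotation of GRCz12tu, a build other than the GRCz11 that the submitters' processing notes name, a run of 7 adjacent keratins (krt1-19d, krt1-19e, krt92, cyt1l, cyt1, krt17 and krt91) held 4 larval keratins, 1 juvenile keratin and 2 of neither set. A run of 5 (krt93, krt94, krt98, krt15 and krt99) held 4 of the juvenile keratins and krt99. krt18a.2 stood in a run of 4 with krt5, krt8 and krt18a.1, and krt1-c5 had no keratin beside it. Adjacent keratins can be close copies that share reads, and this arrangement was not tested.

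Other genes of the epidermis and of other tissues gave the following counts late against early in DMSO. Of all genes tested 15.4 percent were higher and 13.7 percent lower. Of 15 genes of desmosomes and cell envelopes, which anchor keratin filaments at cell contacts, 1 was higher (PKP1, log2 fold change 1.73) and 1 lower (JUP, -1.30), with a median of 0.28. Of 15 genes of hemidesmosomes and the basement membrane, which anchor keratins of basal cells, 4 were higher, among them lamb3 (3.84) and col17a1b (1.99), and 3 were lower, among them col17a1a (-2.48). Of 19 epidermal transcription factors and junction genes 1 was higher (klf17, 1.13) and 2 were lower (TFAP2A, -1.56, and cldn1, -1.27). Of 18 other intermediate filament genes 2 were higher, among them lmnl3 (3.32), and 5 lower, among them GFAP (-3.55) and VIM (-2.17). Of 9 ionocyte and mucous cell genes 3 were lower, pvalb8 (-2.83) among them, of 13 intestinal genes 2 were higher, and of 12 genes encoded in the mitochondrion 1 was higher. Markers of other cells moved with age too: 9 of 9 fibroblast and scale forming genes were higher with a median of 2.61, and 11 of 11 oocyte genes were higher with a median of 8.88. The summed level of the oocyte genes was 13.2 to 16.3 CPM at 8 d and 13.3 to 16.2 CPM at 16 d, against 43.3 to 358 CPM at 32 d and 3003 to 7273 CPM at 64 d in DMSO. The summed level of the fibroblast and scale forming genes was 529.5 to 1168 CPM at 8 d, 1604 to 2133 CPM at 16 d, 4014 to 16080.2 CPM at 32 d and 6891 to 9537 CPM at 64 d in DMSO. Their part in the keratin changes was not tested.

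No keratin passed the test between treatments at 2, 8, 16 or 32 d. At each age EM, E2 and EM+E2 were compared with DMSO, and EM+E2 with EM; these comparisons share the DMSO or the EM libraries. edgeR called 0 keratins in all 16 comparisons, 0 to 4 had an unadjusted p under 0.05 in each, and DESeq2 called 0. At 2 d 18 of the 22 keratins were tested. The background was low as well: 0 percent of all genes were called in 10 of the comparisons. It was 0.0152 percent for EM+E2 against DMSO and 0.0203 percent for EM+E2 against EM at 2 d, 0.00493 percent for each of these at 8 d, and 0.217 percent for EM and 0.250 percent for EM+E2 against DMSO at 32 d. Without EM 8 d replicate 1, in which keratins were low, krt1-c5 passed as higher in EM than in DMSO at 8 d (log2 fold change 1.89, adjusted p = 0.0395). In the same fit krt1-c5, krt18b and krt98 passed as lower in EM+E2 than in EM. The calls without E2 2 d replicate 1 and E2 16 d replicate 1 were also 0 at 2 and 16 d.

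At 32 d the larval keratins cyt1, krt1-19e and krt17 had higher means in EM and in E2 than in DMSO, without passing the test. cyt1 stood at 11.6, 6.28 and 15.4 CPM in DMSO, at 29.7, 82.8 and 73.1 CPM in EM, at 80.6, 16.9 and 15.7 CPM in E2 and at 75.2, 5.20 and 52.2 CPM in EM+E2. In these raw counts every EM and E2 library was above every DMSO library, and the EM+E2 libraries spanned them. For E2 the closest values were 15.7 CPM in E2 replicate 3 and 15.4 CPM in DMSO replicate 3. In the recovered reads the EM libraries were above those of DMSO. There E2 replicate 3, at 6.14 CPM, was below DMSO replicate 2, at 7.45 CPM. The share of all genes apart in this way at 32 d is not given here. On the raw counts the log2 fold change of cyt1 was 2.21 for EM (SE 0.85, unadjusted p = 0.0224, adjusted p = 0.658). For E2 it was 1.89 (SE 0.84, unadjusted p = 0.0435, adjusted p = 0.579). krt1-19e stood at 117, 38.5 and 121 CPM in DMSO, at 271, 477 and 446 CPM in EM, at 257, 95.3 and 535 CPM in E2 and at 441, 57.1 and 279 CPM in EM+E2. Its log2 fold change was 1.89 for EM and 1.82 for E2, with the same adjusted p-values as cyt1. The mean log2 ratio of larval to juvenile keratins at 32 d was -3.43 ± 0.47 in DMSO, -2.00 ± 0.51 in EM, -2.57 ± 0.83 in E2 and -2.60 ± 0.43 in EM+E2 (SD, n = 3 each). The DMSO 32 d libraries helped to choose both sets. Comparisons of these sets with DMSO at 32 d, by gene or by ratio, therefore lean towards lower larval values in DMSO. From 16 to 32 d no keratin passed in EM (background 0.316 percent; 5 at an unadjusted p under 0.05, DESeq2 1) or E2 (background 0.0534 percent; 4 and 2). krt15 passed as higher in EM+E2 (log2 fold change 1.30, adjusted p = 0.0241, background 0.470 percent), a call that ended without EM+E2 16 d replicate 1 or 2 or EM+E2 32 d replicate 1 or 2. cyt1 was lower in every 32 d library than in every 16 d library of each of these treatments, with log2 fold changes of -2.05, -2.45 and -2.67 and adjusted p-values of 0.322, 0.478 and 0.132. Whether the step differs between treatments was not tested.

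At 64 d krt8, krt18b and krt4 were higher in fish kept in EM, with or without E2. For krt4 this held in the raw counts and not in the recovered reads. krt8, krt4 and krt18b were higher in EM than in DMSO, 3 of 21 keratins tested (14.3 percent), and these and krt1-19e and krt1-c5 were higher in EM+E2 than in DMSO, 5 of 21 (23.8 percent). Of all 21383 genes, 13.6 percent were higher in the comparison of EM with DMSO and 13.6 percent in that of EM+E2 with DMSO. The share of keratins in EM was near the background. The comparisons share the DMSO libraries. The median log2 fold change was 0.40 over the keratins and 0.21 over all genes in EM, and 0.68 and 0.15 in EM+E2. The medians over all genes were 0.06 and 0.01 when libraries were scaled by DESeq2's size factors. No keratin was lower, and cyt1l was too low to be tested. The other krt18 genes, krt18a.1 and krt18a.2, did not pass in the raw counts. There krt18a.2 stood at 9.13, 11.4 and 15.3 CPM in DMSO and at 12.36 and 10.18 CPM in EM. krt18a.1 stood at 21.66, 22.63 and 25.06 CPM in DMSO and at 20.56 and 27.77 CPM in EM+E2. Its EM libraries, at 32.50 and 28.74 CPM, were above those of DMSO. In the recovered reads 0 of 21 keratins were lower in EM and 0 of 21 in EM+E2, against 21.4 percent of all genes in each.

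krt8 stood at 230.3, 221 and 281 CPM in DMSO, at 851 and 453 CPM in EM, at 567 and 624 CPM in E2 and at 788 and 702 CPM in EM+E2. All treated libraries, those of E2 included, were above the DMSO libraries. The share of all genes apart in this way at 64 d is not given here, for krt8 or for the keratins that follow. The change was a log2 fold change of 1.38 (SE 0.32, adjusted p = 0.0118) for EM, which is 1.17 above the median of all genes, and a log2 fold change of 1.57 (SE 0.32, adjusted p = 0.00818) for EM+E2. For E2 the log2 fold change was 1.19 (SE 0.32, adjusted p = 0.0865). The EM call ended without EM 64 d replicate 1 and the EM+E2 call without EM+E2 64 d replicate 1.

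krt18b, a type I keratin named after the partner of krt8, stood at 3.61, 20.1 and 17.5 CPM in DMSO, at 31.1 and 94.0 CPM in EM, at 39.8 and 43.9 CPM in E2 and at 59.1 and 67.8 CPM in EM+E2. The treated libraries were again all above the DMSO libraries, of which replicate 1 was the lowest. The change was a log2 fold change of 2.09 (SE 0.61, adjusted p = 0.0292) for EM, a log2 fold change of 2.14 (SE 0.62, adjusted p = 0.0274) for EM+E2 and 1.48 for E2 (adjusted p = 0.155). On the recovered reads krt18b passed in all 3, with 1.52 for EM, 1.20 for E2 (adjusted p = 0.0463) and 1.71 for EM+E2. The EM call ended without EM 64 d replicate 2, and the EM+E2 call without either EM+E2 64 d library.

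krt4 stood at 62.9, 44.5 and 59.5 CPM in DMSO, at 159 and 246 CPM in EM, at 91.0 and 141 CPM in E2 and at 137 and 262 CPM in EM+E2 in the raw counts. The DMSO libraries were again the lowest. The raw change was a log2 fold change of 1.80 (SE 0.34, adjusted p = 0.00454) for EM and a log2 fold change of 1.79 (SE 0.34, adjusted p = 0.00603) for EM+E2, and both calls held without any 1 library. In 1 fit over all 20 groups the log2 fold changes for EM and EM+E2 were 2.05 and 2.02 for krt4 (adjusted p = 0.221 and 0.231) and 1.61 and 1.80 for krt8 (adjusted p = 0.168 and 0.125). The krt4 calls did not hold in the recovered reads, where krt4 stood at 1028, 1622 and 1036 CPM in DMSO, at 2298 and 1823 CPM in EM, at 1566 and 1429 CPM in E2 and at 1948 and 1739 CPM in EM+E2. There the log2 fold changes were 0.60 (adjusted p = 0.131) and 0.45 (adjusted p = 0.245).

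krt5, type II as krt4 is, showed the opposite dependence on the table. In the recovered reads it stood at 1474, 1397 and 1302 CPM in DMSO, at 3657 and 2586 CPM in EM, at 3275 and 2542 CPM in E2 and at 3521 and 2609 CPM in EM+E2, with all treated libraries above DMSO. Its change was a log2 fold change of 1.03 (SE 0.29, adjusted p = 0.0192) for EM and a log2 fold change of 1.01 (SE 0.29, adjusted p = 0.0206) for EM+E2. In the raw counts, which gave krt5 few reads, the log2 fold changes were -0.78 (adjusted p = 0.464) and 0.13 (adjusted p = 0.904). In all, the recovered reads called 6 keratins higher in EM (krt8, krt18b, krt18a.1, krt5, krt1-c5 and krt95; background 19.5 percent), 7 in EM+E2 (krt8, krt1-19e, krt18b, KRT222, krt18a.1, krt5 and krt1-c5; background 19.9 percent) and 1 in E2 (krt18b; background 1.82 percent).

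krt1-19e stood at 25.5, 6.38 and 24.5 CPM in DMSO, at 12.3 and 26.1 CPM in EM, at 22.0 and 16.1 CPM in E2 and at 58.8 and 47.8 CPM in EM+E2. Both EM+E2 libraries were above all others, and the EM and E2 libraries overlapped those of DMSO. krt1-c5 stood at 0.531, 1.06 and 0.794 CPM in DMSO, at 2.19 and 4.30 CPM in EM, at 3.34 and 1.03 CPM in E2 and at 4.73 and 2.27 CPM in EM+E2, and the EM and EM+E2 libraries were above the DMSO libraries. For EM+E2 the changes were 1.501 for krt1-19e (SE 0.48, adjusted p = 0.0410) and 2.06 for krt1-c5 (SE 0.68, adjusted p = 0.0453). With DESeq2's size factors in edgeR the adjusted p-values were 0.0613 and 0.0562. The krt1-19e call ended without any one of DMSO replicate 1 and the E2 and EM+E2 libraries of 64 d, and the krt1-c5 call without any one of DMSO replicates 1 and 3, E2 replicate 1 and the EM and EM+E2 libraries.

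No keratin passed for E2 against DMSO at 64 d (background 0.00468 percent; 4 at an unadjusted p under 0.05, DESeq2 1) or for EM+E2 against EM (background 0 percent; 1 at an unadjusted p under 0.05, DESeq2 0). The log2 difference of EM+E2 from EM was 0.19 for krt8 (SE 0.36), -0.01 for krt4 (SE 0.37) and 0.05 for krt18b (SE 0.67). Of the larval and juvenile keratins, cyt1 differed between EM and DMSO by -0.02 (adjusted p = 0.983), krt17 by 0.40 (adjusted p = 0.390), krt94 by 0.53 (adjusted p = 0.338) and krt91 by 0.52 (adjusted p = 0.316). These counts depended on DMSO 64 d replicate 2, the 64 d library with the most mitochondrial reads (15.6 percent): without it 10 keratins passed in EM and 12 in EM+E2, with krt97, krt95, krt91, krt15, krt94 and KRT222 among the added ones in both. Without EM+E2 64 d replicate 1 the count in EM+E2 was 1. How many of all genes passed in these fits is not given here, so the shifts are not shown to be particular to keratins.

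**Figure D5:**
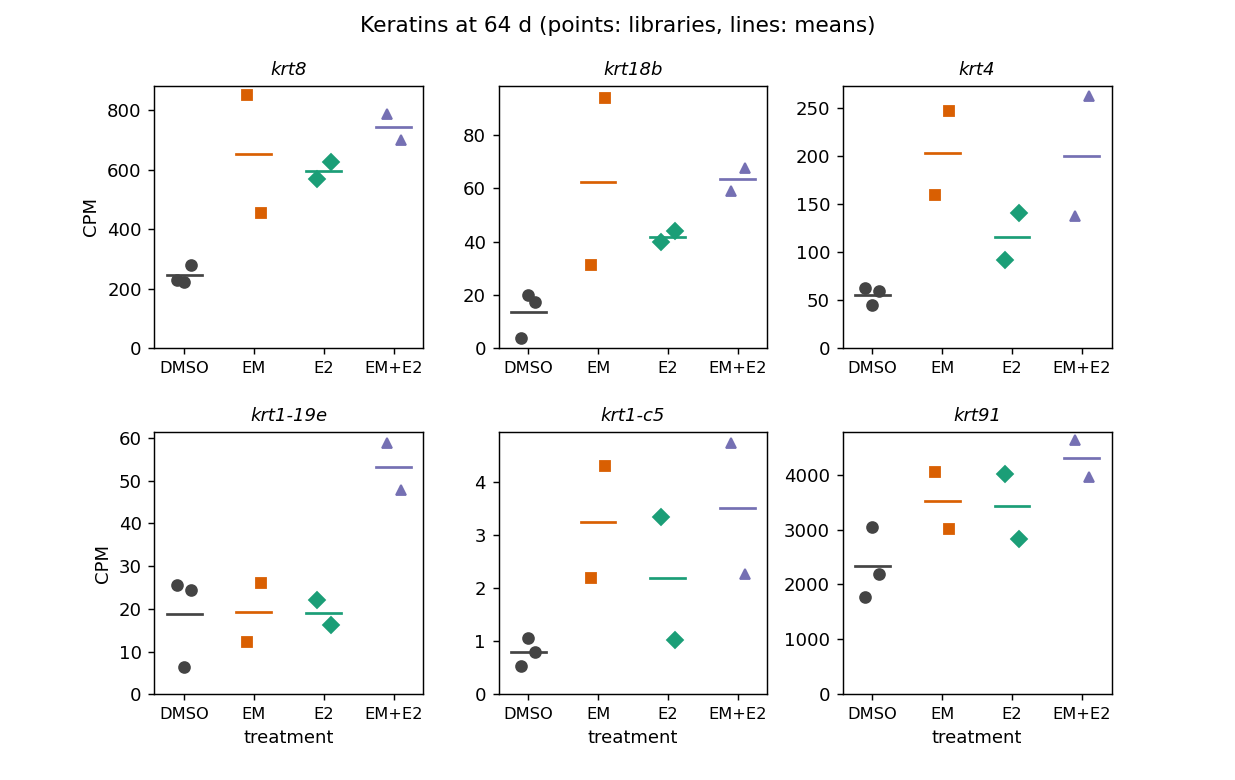
CPM of krt8, krt18b, krt4, krt1-19e, krt1-c5 and krt91 in each 64 d library of the raw counts, by treatment (3 DMSO libraries and 2 of each other group), on linear axes from 0. All treated libraries lie above the DMSO libraries for krt8, krt18b and krt4, and krt91 overlaps. The share of all genes apart in this way is not given here.

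Genes of the complexes that hold keratin filaments at the cell's edge were also counted at 64 d. Of all genes tested, 13.6 percent were higher in EM and 13.6 percent in EM+E2 than in DMSO. In the recovered reads 21.4 percent of all genes were lower in each. The lists were counted on the raw counts, where the share of all genes that were lower is not given here. In EM 10 of 15 desmosome and envelope genes were higher than in DMSO, among them dsg2.1 (log2 fold change 1.85) and DSP (1.47), and in EM+E2 9 were. Of 15 hemidesmosome and basement membrane genes 11 were higher in EM, among them ITGB4 (2.61) and col17a1b (2.16), and 10 in EM+E2. For E2 against DMSO 0 of 15 passed in either list, where 0.00468 percent of all genes passed. Of 19 epidermal transcription factors and junction genes 8 were higher and 1 lower in EM (GRHL1, 1.28, among the higher), and 9 and 1 in EM+E2. Of 18 other intermediate filament genes 11 were higher and 2 lower in EM. The summed desmosome and envelope level was 768 to 955 CPM in DMSO, 1691 to 2602 CPM in EM, 1931 to 1969 CPM in E2 and 2263 to 2385 CPM in EM+E2. Keratin reads per read of the epidermal lists were 1.87 to 3.10 in DMSO, 1.38 to 1.55 in EM, 1.35 to 1.55 in E2 and 1.52 to 1.75 in EM+E2. Oocyte genes moved the other way: 11 of 11 were lower in EM and 6 of 11 in EM+E2. Their summed level was 3003 to 7273 CPM in DMSO, 7.88 to 9.02 CPM in EM, 2327 to 2489 CPM in E2 and 24.5 to 851 CPM in EM+E2. Fibroblast and scale forming genes were higher for 6 of 9 in EM and 5 of 9 in EM+E2. Ionocyte and mucous cell genes were higher for 4 and 5 of 9 in the same order, and intestinal genes for 2 of 13 in each. None of these was lower, and no mitochondrial gene passed. The part of these other cells' reads in the keratin values was not tested.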

How the data were processed

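Libraries of polyadenylated RNA kept strand information, according to the labels. The build and tools in the submitters' processing notes are GRCz11, FastQC 0.11.8, HISAT2 2.0.5, SAMtools 1.5, Picard, HTSeq 0.9.1 and MultiQC 0.9. How these were run, with which annotation, and whether reads were counted by strand is not given in the sources used here. The authors deposited raw counts of reads per gene for 32520 genes and 56 libraries. The authors also deposited a normalized signal table of 32266 genes, in which 100 percent of the values of each column were whole multiples of 1 step within 0.01; these gave the recovered reads. In DMSO 64 d replicate 3 that step lies too close to 1 for this to be a check. The tables share 27913 genes and do not hold the same counts.

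The raw table was analysed in edgeR 4.0.16 (R 4.3.3; filterByExpr with min.count 10 and min.total.count 15, TMM scaling, quasi-likelihood F test, Benjamini-Hochberg adjustment over all genes of a comparison, threshold 0.05). Each treatment had 1 fit over its 5 ages, and each age 1 fit over its 4 treatments. The test was checked on simulated counts with 200 changed genes. For EM against DMSO it called 0 percent of 2-fold and 35.8 percent of 4-fold changes at 32 d. At 64 d these were 0 and 40.3 percent, and from 16 to 32 d in DMSO 0 and 17.9 percent. Late against early in DMSO gave 5.97 and 50.7 percent. In the data 2903 genes were called higher for EM against DMSO at 64 d, and 3414 late against early in DMSO. For EM against DMSO at 32 d 46 were called in either direction. Adjusted p-values depend on how many genes change, and the check was run with 200 only. What share of 2-fold and 4-fold changes is called with as many changed genes as in the data was not tested. A comparison without a call does not exclude 2-fold or 4-fold changes. DESeq2 1.42.0, its size factors in edgeR, no filter, 1 fit over all groups, a block for the replicate number, the recovered reads and leaving out each library were alternatives. Counting intervals (95 percent) and the limits set by a count of 0 (3 counts) cover counting error only.

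Symbols came from the supplied gene table. Levels are given library by library in DMSO, and as lowest, median and highest over all treatments, for the 10 keratins with the highest mean CPM and up to 5 called in each direction late against early; in other comparisons the keratins that passed are named, and of each other list up to 4 genes that passed with the smallest adjusted p. The keratins and the lists were chosen with earlier results of these data known. Protein and promoter sequences were not analysed here, and 1 gene of the other lists that would have been named is not reported here.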

Additional observations from a re-analysis of the deposited data

Results flagged for a closer look

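EM+E2 2 d replicate 2 entered no comparison, since its raw column is a copy, but the normalized table holds values of its own for it. In those recovered reads the 22 keratins took 1.525 percent of the reads, against at most 1.192 percent in the DMSO 2 d libraries of the same table, so its keratin share lay above the controls. Some other treated 2 d libraries had like shares in that table: 1.56 percent in EM replicate 3, and 1.41 and 1.33 percent in EM+E2 replicates 1 and 3. The rest did not exceed the controls: 0.798 and 0.746 percent in EM replicates 1 and 2, and 0.233, 0.515 and 1.11 percent in E2 replicates 1 to 3. In EM+E2 2 d replicate 2 the log2 ratio of larval to juvenile keratins was 1.91. krt4 stood at 8992 CPM, krt5 at 1185 CPM and cyt1l at 1109 CPM, and krt93 and krt95 had no read.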

How the results depend on the processing

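The count of keratins called was within 1.5 times its reported value in 518 of 572 combinations of a comparison and an alternative, and the other 54 moved beyond that. Most comparisons had 0 calls on the raw counts, and 0 again under an alternative was counted as within. The 518 therefore say little about the comparisons that had calls. Among tests called on the raw counts, no named keratin changed direction under any alternative, but 165 of 1247 lost the call. Tests not called there were not followed, and krt5 in EM at 64 d changed sign in the recovered reads. Of 60 keratin shares and larval to juvenile ratios 31 moved beyond the spread between replicates. With DESeq2 2 keratins were called from 8 to 16 d in DMSO, from 16 to 32 d 1 in EM, 2 in E2 and 4 in EM+E2, late against early 12 in EM, and 1 for E2 against DMSO at 64 d. In 1 fit over all groups the counts were 0 (8 to 16 d) and 2 (16 to 32 d) in DMSO, 2 in E2 and 0 in EM+E2 (16 to 32 d), 8 in E2 and 9 in EM+E2 (late against early), and 2 for EM+E2 against DMSO at 64 d. DESeq2's size factors in edgeR gave 3 for EM+E2 against DMSO at 64 d, no filter gave 2 from 16 to 32 d in EM+E2, and the recovered reads gave 2 from 16 to 32 d in EM+E2 and, at 64 d, 6 for EM and 1 for E2. The cause was not tested.

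Leaving out 1 library gave 0 to 1 calls from 8 to 16 d, 2 to 5 from 16 to 32 d and 2 to 4 from 32 to 64 d in DMSO, 0 to 1 in EM and 0 to 4 in EM+E2 from 16 to 32 d, 4 to 10 in EM, 0 to 5 in E2 and 9 to 14 in EM+E2 late against early, 0 to 1 for EM against DMSO and 0 to 3 for EM+E2 against EM at 8 d, and 2 to 10 for EM and 1 to 12 for EM+E2 against DMSO at 64 d. The shares of all genes called in these fits are not given here. Leaving out both DMSO 2 d libraries, or E2 2 d replicate 1 with E2 16 d replicate 1, was chosen after seeing the data and moved no count beyond 1.5 times.

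Whether the replicate numbers mark shared batches is not stated, and the correlations do not settle it. Of 178 same-numbered pairs 66 had deviations correlated over 0.1 (r from -0.75 to 0.79). Over the ages 11 of 26 did in DMSO, 12 in EM, 13 in E2 and 1 of 22 in EM+E2, and at 64 d 0 of 12 did. At 16 d 14 of 18 did (median r 0.28). With the number as a block, 1 keratin was called in EM and 0 in EM+E2 from 16 to 32 d and 3 for EM+E2 against DMSO at 64 d. Groups of 2 or 3 pools and the low reads of krt95, krt98, krt99, krt1-c5 and krt18a.2 limit what could be detected.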
